A study of Mus musculus with 6 samples.

Results

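The 40 genes described here encode the machinery of cell division: cyclins and their kinase, the enzymes of DNA replication and nucleotide supply, and the proteins that condense, attach and separate chromosomes in mitosis. They were chosen by name from the deposited gene table, which lists 33679 genes. All 40 names were found, each in 1 row, and all 40 passed the filter on low values used for testing (mean FPKM of 0.5 or more across the libraries), which left 16871 genes. FPKM counts a gene's sequenced fragments relative to the length of its transcript and to the size of the library, so levels can be compared between genes. Of the members, 4 were assigned to the G1/S transition, 11 to S phase and 25 to G2 and mitosis (G2/M), and they lie on 16 chromosomes.

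Messenger RNA was sequenced from kidneys of mice after unilateral ureteral obstruction, in which the ureter of 1 kidney is tied off and that kidney becomes inflamed and scars. The groups were Cd248 KO mice, which lack the endosialin gene, and Wild type mice. Both had the same operation, and no unobstructed kidney was analysed here. The labels name 3 samples per group; the table used here holds knockout replicate 1 and wild type replicates 1, 2 and 3, while the other two knockout samples were not analysed here. The sources used here do not give strain, age, sex or the time since obstruction. The protocols speak of pooled RNA and nothing says that replicates were separate animals, so a p-value here reflects spread among libraries that may be no more than technical. A knockout value is 1 measurement, and errors rest on the spread of the 3 wild type libraries. Below, values are given in the order knockout library, then wild type replicates 1, 2 and 3, unless stated otherwise.

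As background, a cell that enters the cycle makes D-type cyclins, which with their kinases inactivate the retinoblastoma protein and free E2F factors to switch on the genes of DNA replication. Later a second wave of genes, driven by B-MYB and FOXM1, prepares mitosis. Most cells of a healthy adult kidney rest outside the cycle, whereas after obstruction tubule cells, interstitial fibroblasts and infiltrating leukocytes are known to divide, so a whole-kidney level sums over many cell types. In such bulk samples fewer dividing cells and less RNA per dividing cell cannot be told apart.

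Both waves are known for short promoter elements, and these were searched in the members' promoters (250 bases before to 50 bases after the gene start; RefSeq, GRCm38.p6, which is the mm10 build). Of the members, 31 had an entry. The E2F site was searched as TTCCCGC and as TTGGCGC and as TTCGCGC and as TTGCCGC, the cell cycle homology region (CHR) as TTTGAA and as TTTAAA, and the CCAAT box as CCAAT, each on both strands with an exact match of the letters. Matches of the same or of different elements may overlap. Among the G2/M members, 17 of 19 held a CHR (89.5%), against 30.6% of all 27025 genes with a window, and 16 of 19 (84.2%) held both a CHR and a CCAAT box, against 12.2%. Among the S members, 6 of 10 held an E2F site (60.0%), against 10.9% of all genes, and 3 of 19 G2/M members did (15.8%). A CCAAT box was present in 8 of 10 S members and in 17 of 19 G2/M members, against 41.1% of all genes. A match is a description of the letters and not a site shown to be bound.

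The 4 promoters printed here were chosen for their genes' values: Cenpe had the lowest knockout level relative to wild type, Ube2c had the widest spread among wild type libraries, Ccnb2 had a knockout level near the middle of wild type, and Mcm6 stands for S phase. They run 5′ to 3′ on the strand of the gene, and capitals mark the matches to the elements above.
Cenpe, chr3:135212313-135212612, plus strand: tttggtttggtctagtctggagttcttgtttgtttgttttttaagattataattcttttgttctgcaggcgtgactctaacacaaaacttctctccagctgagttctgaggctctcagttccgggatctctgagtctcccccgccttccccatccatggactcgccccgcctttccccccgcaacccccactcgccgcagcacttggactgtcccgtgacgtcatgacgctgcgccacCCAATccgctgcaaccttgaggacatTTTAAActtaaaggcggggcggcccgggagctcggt
Ube2c, chr2:164769679-164769978, plus strand: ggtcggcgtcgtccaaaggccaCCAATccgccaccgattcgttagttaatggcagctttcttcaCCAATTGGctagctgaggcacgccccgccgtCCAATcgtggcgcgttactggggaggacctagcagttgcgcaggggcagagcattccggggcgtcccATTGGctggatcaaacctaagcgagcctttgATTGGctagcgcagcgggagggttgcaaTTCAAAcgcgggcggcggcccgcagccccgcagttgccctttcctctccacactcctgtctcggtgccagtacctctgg
Ccnb2, chr9:70421505-70421804, minus strand: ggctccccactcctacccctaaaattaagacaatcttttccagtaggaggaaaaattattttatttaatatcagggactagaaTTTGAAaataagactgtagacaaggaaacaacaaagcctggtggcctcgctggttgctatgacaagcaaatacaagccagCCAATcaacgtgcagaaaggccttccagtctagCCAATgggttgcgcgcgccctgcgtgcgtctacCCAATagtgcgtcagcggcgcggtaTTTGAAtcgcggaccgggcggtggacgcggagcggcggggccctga
Mcm6, chr1:128359656-128359955, minus strand: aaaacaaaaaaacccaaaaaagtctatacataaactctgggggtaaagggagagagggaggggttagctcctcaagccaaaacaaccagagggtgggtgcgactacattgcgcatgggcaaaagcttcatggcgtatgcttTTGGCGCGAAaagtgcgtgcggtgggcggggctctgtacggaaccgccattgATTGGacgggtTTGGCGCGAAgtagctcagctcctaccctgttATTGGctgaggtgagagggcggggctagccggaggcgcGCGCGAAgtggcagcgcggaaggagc
The Cenpe window holds 1 CCAAT box and a TTTAAA, and the Ccnb2 window holds CCAAT boxes between its TTTGAA matches. In the Ube2c window the CHR lies on the other strand and reads TTCAAA. The Mcm6 window shows E2F sites that overlap head to head, and no CHR. Cenpe and Ccnb2 thus both carry a CHR and a CCAAT box, in different numbers. They were chosen because their values differed, so setting them side by side cannot show whether the elements bear on the levels.

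Cd248 itself (ENSMUSG00000056481; mm10, chromosome 19, 5068078 to 5070682) had a listed FPKM of 0 in the knockout library, against 9.03, 9.57 and 8.78 in wild type (difference -3.34 on the log2(FPKM + 1) scale, limma adjusted p = 0.00295), so its direction followed the labels. Library totals lay between 267394.4 and 304425.6 FPKM, and read depth is unknown. Immunoglobulin genes took 5.98% of the knockout total and 0.113% to 0.202% of the wild type totals. All genes were tested together with limma, two-sided, on log2(FPKM + 1), where the added 1 shrinks the differences of low genes, with Benjamini-Hochberg adjustment over 16871 genes. With 1 knockout library, the fit takes its spread from the wild type group and assumes the same spread for the knockout. Over all tested genes the median difference was -0.01, and 0.083% passed at an adjusted p under 0.05 as lower and 0.64% as higher in the knockout library.

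The members' levels were low for most and highest for 4. Stmn1, a protein that destabilises microtubules, averaged 31.3 FPKM in wild type, the D-type cyclin Ccnd1 26.8 FPKM, the replication clamp Pcna 25.2 FPKM and the helicase subunit Mcm6 10.5 FPKM. Another 35 averaged between 1 and 10 FPKM, and the kinetochore protein Cenpf averaged 0.957 FPKM. Stmn1, Ccnd1 and Pcna, whose products are also known outside division (in microtubule turnover, growth factor response and DNA repair), therefore weigh heavily in any sum over the list. For the list and its phases, medians, counts and mean log2 levels are used below for that reason. Sums are given only for the MCM subunits and the cell type markers, and can likewise rest on few genes.

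No member passed the test between genotypes. By limma 0 of 40 were called lower and 0 of 40 higher, with adjusted p between 0.408 and 0.991. At an unadjusted p under 0.05, 2 members were lower (Aurkb and Bub1) and 0 were higher, against 5.63% of all tested genes lower and 5.14% higher. The differences of the knockout library from the wild type mean ran from -0.48 to 0.13, with a median of -0.20, and 32 were negative and 8 positive. In 21 of 40 members the knockout library lay below every wild type library, where 31.2% of all tested genes did, and in 1 (Tk1) it lay above every one, where 28.0% did. Without wild type replicate 1 the median difference was -0.06 (0.01 over all tested genes). In that setting 9 members lay above both remaining wild type libraries and 21 below both. The shares above refer to the full set of wild type libraries, and no share over all genes was computed for that setting. In the authors' deposited table, 0 of the 40 members were marked as significant, where 0.781% of all its genes were, and the lowest q-value of a member was 0.5. The members with the lowest p-values there were Cenpe and Foxm1, not Aurkb and Bub1.

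The 95% intervals show what the comparison could resolve. They held 0 for 38 members, and their median half-width was 0.50 on the log2 scale. The lowest bound of any member was -1.11 and the highest 0.71. A p that misses the threshold does not show that levels were equal.

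**Figure D1:**
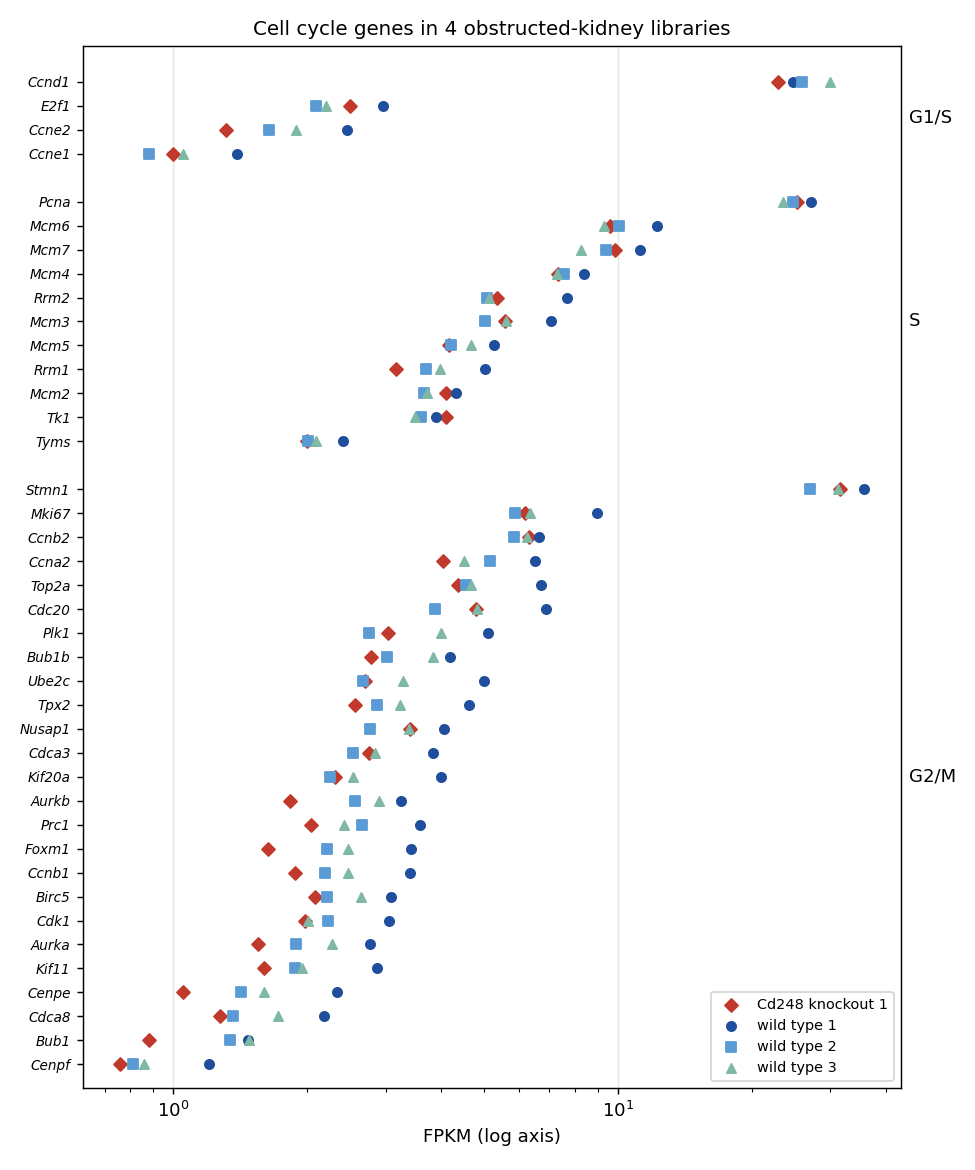
FPKM of each of the 40 cell cycle genes on a log axis, in the knockout library (red diamonds) and wild type replicates 1 (dark circles), 2 (squares) and 3 (triangles), grouped by phase and ordered by wild type mean within each. Wild type replicate 1 is the rightmost point for 37 of 40 genes, and the knockout point is the leftmost for 21.

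The clearest pattern in these genes lay among the wild type libraries. Wild type replicate 1 had the highest value of the 4 libraries in 37 of 40 members, against 36.6% of all tested genes. The exceptions were Ccnd1 and Bub1, highest in wild type replicate 3, and Tk1, highest in the knockout library. Mki67, the proliferation antigen that coats mitotic chromosomes (chromosome 7, 135689784 to 135716361), measured 6.16 FPKM in the knockout against 8.95, 5.86 and 6.34 FPKM in wild type. Its knockout value thus fell between those of wild type replicates 2 and 3, and the difference of -0.15 (SE 0.24, 95% interval -0.80 to 0.50, limma adjusted p = 0.848) became 0.01 without wild type replicate 1. Top2a, the topoisomerase that untangles replicated chromosomes, was at 4.36 FPKM against 6.71, 4.55 and 4.66 FPKM (adjusted p = 0.764). Here too the knockout library stood next to wild type replicates 2 and 3, just below them.

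Wild type replicate 1 exceeded replicate 2 by a median of 0.37 on the log2 scale over the members (0.03 over all tested genes) and replicate 3 by 0.28 (0.08 over all). The ratio of the highest to the lowest wild type value had a median of 1.46 over the members and of 1.2 over all tested genes, and ranged from 1.1 in Bub1 to 1.87 in Ube2c. It was larger in G2/M members (median 1.51) than in S members (1.25). The gap between wild type replicates 1 and 2 was thus close in size to the widest between any pair of libraries, that of the knockout library from wild type replicate 1 (-0.44).

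Set against each wild type library in turn, the knockout library gave different pictures; the 3 comparisons share the knockout library and are not independent. Against wild type replicate 1 it was lower in 39 of 40 members (58.6% of all tested genes), with a median difference of -0.44. Against replicate 2 it was lower in 23 (49.9% of all) with a median of -0.04, and against replicate 3 in 29 (44.9% of all) with a median of -0.09. Nearly the whole list lay on 1 side of replicate 1, whereas members fell on both sides of replicates 2 and 3. The phases differed in this. Against replicates 1, 2 and 3, the knockout library was lower in 25, 16 and 22 of the 25 G2/M members. For the 11 S members these counts were 10, 5 and 4, and for the 4 G1/S members 4, 2 and 3.

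**Figure D2:**
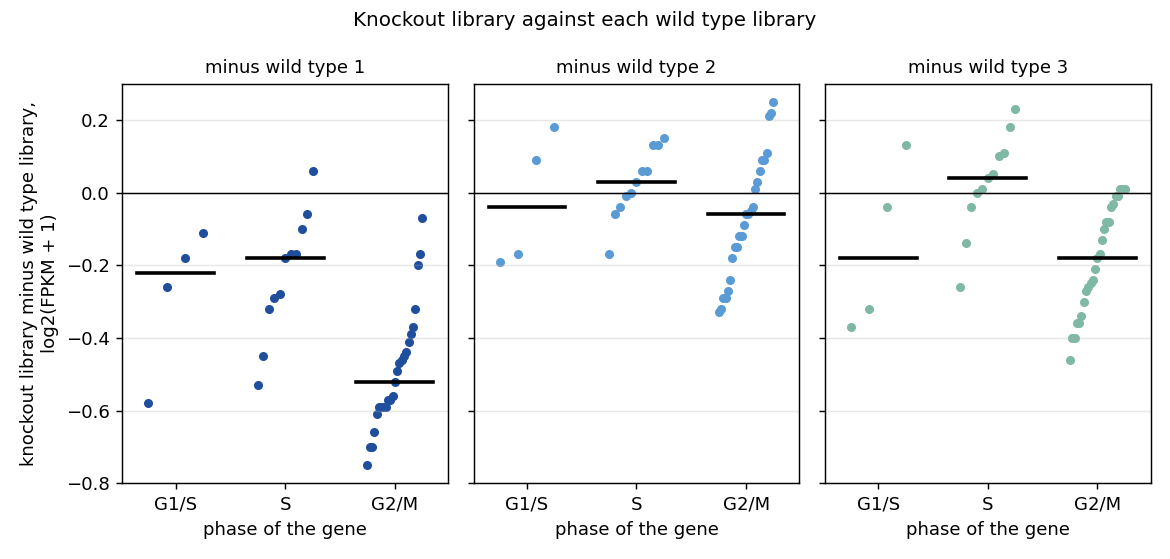
Difference on the log2(FPKM + 1) scale between the knockout library and wild type replicates 1, 2 and 3 (panels), 1 point per gene, by phase, with black bars at the medians. The G2/M median is -0.52, -0.06 and -0.18 in the 3 panels, and the S median -0.18, 0.03 and 0.04.

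At the G1/S transition, 2 of 4 members lay below every wild type library, where 31.2% of all tested genes did, and none passed the test. Ccnd1, which carries growth signals to the cycle (chromosome 7, 144929931 to 144939925), was at 22.89 FPKM against 24.75, 25.85 and 29.91 FPKM (difference -0.22, 95% interval -0.58 to 0.14, limma adjusted p = 0.627). It was the only G1/S member without its peak in wild type replicate 1, and its knockout value lay below all 3. The E-type cyclins start replication with CDK2. Ccne2 was at 1.31 against 2.46, 1.64 and 1.89 FPKM (-0.37, adjusted p = 0.568), below every wild type library, and Ccne1 was at 1.0 against 1.39, 0.88 and 1.05 FPKM (-0.07, adjusted p = 0.914), inside their range. E2f1, the factor that switches on replication genes, was at 2.50 against 2.96, 2.09 and 2.20 FPKM (0.04, adjusted p = 0.948), also inside the range. The median over the 4 was -0.14.

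Replication genes lay mostly inside the wild type range. The median over the 11 S members was -0.07, and 7 lay inside the wild type range, 3 below it and 1 above it. Over all tested genes 40.8% lay inside, 31.2% below and 28.0% above. Pcna, the clamp that holds DNA polymerase on its template (chromosome 2, 132249162 to 132253314), was at 25.24 FPKM against 27.21, 24.77 and 23.48 FPKM (difference 0.01, 95% interval -0.30 to 0.31, limma adjusted p = 0.988). Its sign turned with the scaling of the libraries, to -0.12 with the same FPKM total, and the copy Pcna-ps2 (1.03 against 1.20, 1.24 and 1.06 FPKM) could share its reads. The 6 subunits of the MCM helicase, which unwinds DNA at origins, summed to 40.6 FPKM against 48.4, 39.9 and 38.8 FPKM. All 6 were highest in wild type replicate 1, and their differences ran from -0.14 (Mcm5) to 0.06 (Mcm2).

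Of the 4 enzymes that supply nucleotides, none passed the test. Rrm1, the large subunit of ribonucleotide reductase, was at 3.17 FPKM against 5.03, 3.69 and 3.98 FPKM (-0.32, adjusted p = 0.589), which put it below every wild type library and made it the single S member under 80% of the wild type mean (74.9%). Its partner Rrm2, the small subunit whose level follows S phase, was at 5.33 against 7.66, 5.07 and 5.12 FPKM (-0.11, adjusted p = 0.891), inside the range. Tk1, the thymidine kinase of the salvage pathway, was at 4.11 against 3.90, 3.60 and 3.50 FPKM (0.13, 95% interval -0.15 to 0.41, adjusted p = 0.695). Tyms, which makes thymidylate anew, was at 2.0 against 2.40, 2.01 and 2.09 FPKM (-0.08, adjusted p = 0.855). Tk1 lay above the wild type range and Tyms below it, only narrowly below replicate 2, by margins the test did not resolve.

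The differences of the G2/M genes were more negative than those of the replication genes, with no call and no test of that contrast. Their median was -0.27, and 16 of 25 lay below every wild type library, 9 inside the range and 0 above it. Over all tested genes these shares were 31.2%, 40.8% and 28.0%. Without wild type replicate 1 the median was -0.15 for G2/M and 0.05 for S members. As a share of the wild type mean, the 25 ranged from 58.9% to 101%. Within a library, the mean log2 level of the S members exceeded that of the G2/M members by 0.90 in the knockout library and by 0.64, 0.81 and 0.69 in wild type replicates 1, 2 and 3; this gap was widest in the knockout library and was not tested, since the genes share their libraries.

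The lowest differences were those of a transcription factor and a mitotic kinase. Foxm1, the factor that drives mitotic genes (chromosome 6, 128362967 to 128376146), was at 1.63 FPKM against 3.42, 2.21 and 2.47 FPKM (-0.48, SE 0.21, 95% interval -1.06 to 0.10, limma adjusted p = 0.525), the lowest of the 40. Aurkb, the kinase that corrects faulty chromosome attachments (chromosome 11, 69045647 to 69051664), was at 1.83 against 3.25, 2.56 and 2.90 FPKM (-0.46, SE 0.14, 95% interval -0.84 to -0.08, unadjusted p = 0.0271, adjusted p = 0.408). Bub1, a spindle checkpoint kinase (chromosome 2, 127801122 to 127831865), was at 0.88 against 1.47, 1.34 and 1.48 FPKM (-0.37, SE 0.12, 95% interval -0.69 to -0.05, unadjusted p = 0.0327, adjusted p = 0.430). In these genes the knockout library stood apart from all 3 wild type libraries, and Bub1 was the member whose wild type values differed least. Aurka, which matures the spindle poles, was at 1.55 against 2.76, 1.89 and 2.27 FPKM (adjusted p = 0.559), below every wild type library, whereas Plk1, a kinase of mitotic entry, was at 3.04 against 5.10, 2.75 and 3.99 FPKM (adjusted p = 0.779), inside the range. Bub1b, the checkpoint protein BubR1, was at 2.78 against 4.19, 3.02 and 3.84 FPKM (adjusted p = 0.611).

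None of the mitotic cyclins passed the test. Ccnb1, which with CDK1 starts mitosis, was at 1.88 FPKM against 3.41, 2.19 and 2.47 FPKM (-0.34, adjusted p = 0.632), below every wild type library. Its relative Ccnb2, whose product is known at the Golgi, was at 6.29 against 6.63, 5.83 and 6.24 FPKM (0.01, 95% interval -0.27 to 0.29, adjusted p = 0.976), in the middle of them. Ccna2, the cyclin of S phase and G2, was at 4.03 against 6.49, 5.16 and 4.51 FPKM (-0.33, adjusted p = 0.613), and Cdk1, the kinase itself, at 1.98 against 3.05, 2.23 and 2.01 FPKM (-0.19, adjusted p = 0.768). Both were below all wild type libraries, Cdk1 only narrowly below replicate 3. A processed copy, Ccnb2-ps, was listed at 0.85 against 1.37, 1.21 and 1.40 FPKM, so reads could be split between it and Ccnb2.

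Genes of chromosome attachment came next. Cenpe, a kinetochore motor (chromosome 3, 135212537 to 135273611), was at 1.05 FPKM against 2.33, 1.42 and 1.60 FPKM (-0.43, 95% interval -1.02 to 0.16, limma adjusted p = 0.566), and had the lowest share of the wild type mean, 58.9%. Cenpf was at 0.76 against 1.20, 0.81 and 0.86 FPKM (adjusted p = 0.792), also the lowest of the 4 libraries. The chromosomal passenger genes Birc5 (survivin, 2.08 against 3.08, 2.22 and 2.64 FPKM) and Cdca8 (borealin, 1.27 against 2.18, 1.36 and 1.72 FPKM) lay below every wild type library as well. Of the genes that drive protein destruction at anaphase, Cdc20, the activator of the anaphase-promoting complex, was at 4.79 against 6.89, 3.87 and 4.82 FPKM (-0.07, adjusted p = 0.949), and its E2 enzyme Ube2c at 2.70 against 5.00, 2.67 and 3.29 FPKM (-0.30, 95% interval -1.11 to 0.51, adjusted p = 0.757). Both lay inside the wild type range, Ube2c only narrowly above replicate 2. Cdca3, a mitotic entry factor grouped with them, was at 2.75 against 3.83, 2.53 and 2.84 FPKM (adjusted p = 0.881).

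Among spindle proteins, 3 of 6 lay below every wild type library, against 31.2% of all tested genes. These were the motor Kif11 that pushes spindle poles apart (1.60 against 2.87, 1.88 and 1.95 FPKM), the spindle assembly factor Tpx2 (2.56 against 4.63, 2.87 and 3.24 FPKM) and the midzone bundler Prc1 (2.04 against 3.58, 2.66 and 2.42 FPKM). The kinesin Kif20a (2.31 against 3.99, 2.25 and 2.54 FPKM), the spindle protein Nusap1 (3.40 against 4.05, 2.77 and 3.38 FPKM) and Stmn1 (31.48 against 35.66, 27.04 and 31.15 FPKM) were inside the range, and the differences of Nusap1 (0.01) and Stmn1 (0.02) turned to -0.09 and -0.11 with the same FPKM total. Adjusted p ran from 0.610 to 0.991 over these 6. In 15 of 40 members an exon overlaps another annotated gene, in 12 of them on the opposite strand (Aurkb, Bub1, Cenpe and Mki67 are not among the 15), and in 4 on the same strand, Foxm1 among them. Whether the counting used strand was not stated, so their values are uncertain to that extent.

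**Figure D3:**
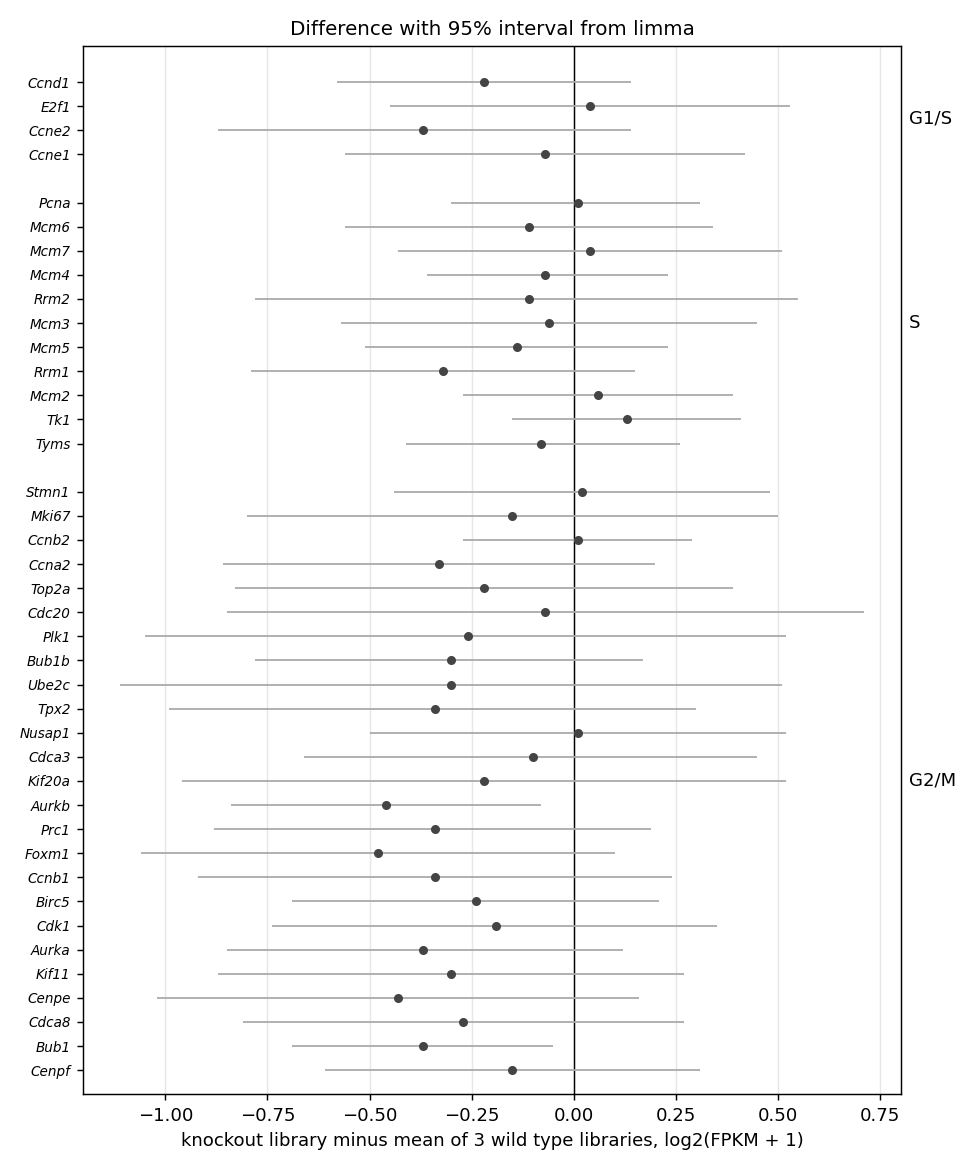
Difference of the knockout library from the mean of the 3 wild type libraries on the log2(FPKM + 1) scale for each of the 40 genes (points), with 95% intervals from limma (bars). Aurkb and Bub1 alone have intervals that leave out 0, and neither passed after adjustment.

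Other genes of the cycle, 119 in 7 lists by role, were likewise highest in wild type replicate 1 for the most part. Of the 115 tested, 0 were lower and 0 higher by limma at an adjusted p under 0.05. At an unadjusted p under 0.05, 1 was lower and 2 were higher, where 5.63% of all tested genes were lower and 5.14% higher. The median difference was -0.08, and 88 of 115 (76.5%) were highest in wild type replicate 1, against 36.6% of all tested genes. The 46 tested mitosis genes had a median of -0.20, and 41 of 46 were highest in wild type replicate 1. In 26 of the 46 the knockout library lay below every wild type library, where 31.2% of all tested genes did. It lay above every one in 0, where 28.0% of all did. Nuf2, which anchors microtubules at the kinetochore, was lowest among them (0.65 against 1.46, 0.88 and 1.05 FPKM, -0.36) and Pttg1, the separase inhibitor securin, highest (11.91 against 10.97, 12.79 and 6.91 FPKM, 0.24). Hjurp, a chaperone of centromeric histone named after its values were seen, was the lower gene at the unadjusted threshold (12.69 against 17.32, 15.93 and 15.45 FPKM, adjusted p = 0.406).

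DNA synthesis genes (18) and origin licensing genes (12 tested) both had a median of -0.01, beside -0.07 for the S members. Dnmt1, the maintenance methyltransferase, was the lowest of the synthesis genes (7.05 against 8.73, 7.44 and 7.20 FPKM, -0.12). The licensing genes ran from the loading factor Cdc6 (0.41 against 0.88, 0.57 and 0.77 FPKM, -0.30) to Gins2 of the replicative helicase (5.31 against 5.15, 4.34 and 4.87 FPKM, 0.13). The 14 tested RB, E2F and DREAM genes had a median of -0.03, from E2f6 (3.81 against 5.22, 4.70 and 4.31 FPKM, -0.25) to E2f5 (15.71 against 14.20, 12.74 and 13.33 FPKM, 0.21). The 5 G1 cyclins and kinases had a median of -0.10, from Ccnd2 (5.48 against 7.57, 8.18 and 5.31 FPKM, -0.29) to Cdk2 (6.17 against 6.85, 6.13 and 5.44 FPKM, 0.01). None of the genes named in these lists passed the test.

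Brakes of the cycle were mixed. Among 6 tested CDK inhibitors, 5 were highest in wild type replicate 1 (36.6% of all tested genes were), so that library was high in inhibitors as well as in mitotic genes. Cdkn2b, the inhibitor induced by TGF-beta, was lowest (3.85 against 6.66, 6.35 and 3.45 FPKM, -0.38, adjusted p = 0.737) and Cdkn2c, the inhibitor p18, highest (6.40 against 5.21, 4.83 and 4.99 FPKM, 0.30, unadjusted p = 0.0282, adjusted p = 0.412). Of the 14 checkpoint and p53 genes the median was -0.01. Ccng1, the p53 target cyclin G1, was at 44.63 against 33.63, 34.57 and 35.54 FPKM (0.36, unadjusted p = 0.0111, adjusted p = 0.309), above every wild type library, and it and Cdkn2c were the higher genes at the unadjusted threshold. Gadd45a, a DNA damage response gene, had the highest difference of that list (34.45 against 28.33, 26.85 and 18.02 FPKM, 0.51, adjusted p = 0.594) and Btg2, an antiproliferative p53 target, the lowest (23.87 against 31.63, 36.36 and 26.10 FPKM, -0.37, adjusted p = 0.587).

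**Figure D4:**
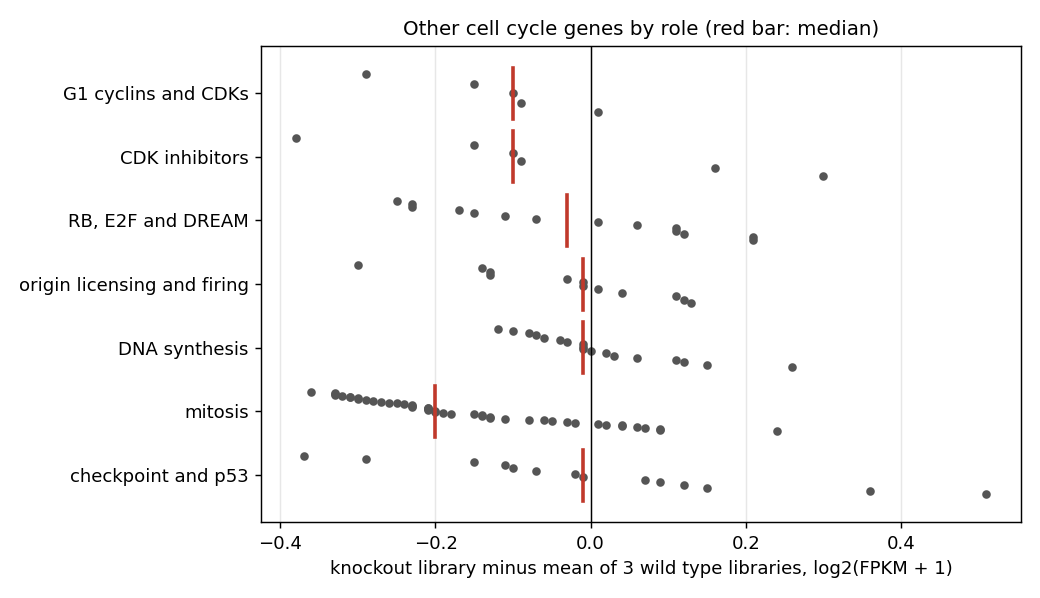
Difference of the knockout library from the wild type mean on the log2(FPKM + 1) scale for the 115 tested other cell cycle genes (points), by role, with red bars at the medians. The mitosis list has its median at -0.20 and the DNA synthesis and licensing lists at -0.01.

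Markers of the kidney's cell types also differed between these libraries. Over all tested genes, 36.6% were highest and 18.5% lowest in wild type replicate 1. All 10 proximal tubule markers were lowest in wild type replicate 1, and their summed level was 3910 FPKM in the knockout library and 1190, 3170 and 4800 FPKM in wild type replicates 1, 2 and 3. Macrophage and monocyte markers were highest in wild type replicate 1 for 8 of 10 genes (sums of 582 against 648, 489 and 572 FPKM), and podocyte markers for 5 of 5 (113 against 139, 101 and 89.4 FPKM). Injured tubule markers summed to 8390 against 8980, 8300 and 7360 FPKM, with 6 of 10 highest in replicate 1. Their mean log2 levels were 6.56 against 7.04, 6.93 and 6.54, an order unlike that of the sums. The knockout library lay below every wild type library in 4 of these 10 and above in 2, with differences from -1.58 to 0.80. For macrophage and monocyte markers it lay above in 2 of 10 and below in 0, with differences from -0.30 to 1.28. Over all tested genes, 31.2% lay below and 28.0% above. Distal nephron and collecting duct markers summed to 599 against 434, 771 and 681 FPKM. The library with the highest division genes was thus also the one with the lowest proximal tubule markers; their part in the levels of the cell cycle genes was not tested.

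For each of the remaining lists the knockout library lay on 1 side of the wild type range in most genes. Over all tested genes it lay below that range in 31.2% and above it in 28.0%. Fibroblast and myofibroblast markers summed to 357 FPKM in it against 796, 925 and 766 FPKM (9 of 10 below every wild type library), endothelial markers to 105 against 154, 175 and 138 FPKM (8 of 8) and urothelium markers to 5.95 against 56.6, 65.2 and 13.0 FPKM (6 of 6 tested), with the urothelial plaque gene Upk2 listed at 0 in the knockout library. B and plasma cell markers summed to 435 against 99.6, 87.5 and 75.5 FPKM (8 of 9 tested above every wild type library; Tnfrsf17, a plasma cell receptor, was listed at 0 in wild type replicates 1 and 2), and T and NK cell markers to 51.4 against 45.5, 34.1 and 32.3 FPKM (8 of 9 tested). Of the B and plasma cell sum, the antibody joining chain gene Jchain alone made up 309.8 FPKM in the knockout library, against 10.72, 6.60 and 5.29 FPKM in wild type. The wild type libraries also differed among themselves in these lists. Over all tested genes, replicate 1 exceeded replicate 2 in 56.6% (median 0.03) and replicate 3 in 65.9% (median 0.08). Replicate 2 exceeded replicate 3 in 58.6% (median 0.03) and was the highest library in 21.4%. Urothelium markers were lower in wild type replicate 3 than in replicates 1 and 2. T and NK cell markers were higher in replicate 1 than in replicate 2 for 9 of 9 genes (median 0.29) and than in replicate 3 for 8 of 9 (median 0.45). For that list the median between the knockout library and replicate 1 was 0.09. Endothelial markers were higher in replicate 2 than in replicate 3 for 8 of 8 genes (median 0.29). Fibroblast and myofibroblast markers were highest of the libraries in replicate 2 for 8 of 10 genes. B and plasma cell markers were higher in replicate 1 than in replicate 3 for 8 of 9 tested genes (median 0.13). For all 5 lists, their part in the cell cycle levels was not tested.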

How the data were processed

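RNA was extracted with Trizol, purified on oligo(dT) beads and sequenced, per the labels' protocols. The submitters' processing notes name cutadapt 1.9, FastQC, HISAT2 2.0.4 and mm10; roles, and the program behind the values, were not given in the sources used here. FPKM in the deposited file is rounded to 2 decimals. The authors' deposited fold change is a ratio of the knockout FPKM to the wild type mean, beside its log2 and the authors' p-value and q-value. The fit planned for 3 against 3 libraries was made as 1 against 3 with limma 3.58.1 (R 4.3.3, mean-variance trend, 2 residual and 2.32 prior degrees of freedom) on log2(FPKM + 1); it was tested on simulated data. An exact permutation test of 1 library against 3 cannot go below p = 0.25. Alternatives were a pseudocount of 0.1, other filters, other scalings, no trend, and leaving out each wild type library. Another left out immunoglobulin genes and scaled the rest to the same FPKM total. Named were Cd248, all members and, from each list of other cell cycle genes, those past the threshold and the lowest and highest. A gene that this rule names is not reported here. Members and lists were chosen with earlier results of these data known. Gene positions are from GENCODE M21.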

Additional observations from a re-analysis of the deposited data

How the results depend on the processing

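No paired analysis was possible because the knockout and wild type columns share only replicate number 1. Under all 10 alternatives run, 0 members and 0 other cell cycle genes passed. Leaving out 1 wild type library gave medians of -0.25 to -0.06 for all members, -0.19 to -0.11 for G1/S, -0.11 to 0.05 for S, -0.37 to -0.15 for G2/M and -0.12 to 0.00 for other cell cycle genes, with 21 to 29 members below and 1 to 9 above every remaining wild type library, and 45 to 73 of all genes passing. The number of all genes passing was 39 with a pseudocount of 0.1 and 205 with no filter, against 122. It was 6 with immunoglobulin genes left out and the rest scaled to the same FPKM total. Shares of all genes below or above the wild type libraries were not computed for the alternatives.

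Scaling to the same FPKM total moved the median of all genes to -0.11, and medians under it are read relative to that. The G1/S median was -0.24. With this scaling 0 members lay above every wild type library and 29 below. The count above was also 0 with immunoglobulin genes left out and the rest scaled to the same FPKM total. Such counts shift with the scaling, and no share over all genes was computed for them. With all genes kept and scaled to the same FPKM total, signs turned for Ccnb2 (-0.10), Nusap1 (-0.09), Mcm2 (-0.05), Mcm7 (-0.08), Pcna (-0.12), E2f1 (-0.05) and Stmn1 (-0.11). With immunoglobulin genes left out and the rest scaled to the same FPKM total, they turned for Ccnb2 (-0.03), Nusap1 (-0.03), Mcm7 (-0.01), Pcna (-0.04) and Stmn1 (-0.03). With quantile normalization they turned for Ccnb2 (0.00), Nusap1 (0.00), Pcna (-0.03) and Stmn1 (-0.05). Leaving out 1 wild type library spanned 0 for Mki67 (-0.26 to 0.01), Ccne1 (-0.15 to 0.03), Cdc20 (-0.23 to 0.12), Cdca3 (-0.20 to 0.03), Mcm3 (-0.15 to 0.06) and Rrm2 (-0.20 to 0.05), whose high ends came without replicate 1, and for Ccnb2 (-0.03 to 0.05), Nusap1 (-0.10 to 0.11), Mcm7 (-0.06 to 0.14), Pcna (-0.04 to 0.06), E2f1 (-0.02 to 0.15) and Stmn1 (-0.08 to 0.11). The cause was not tested. Depth is unknown, so counting error at these low levels could not be computed.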
